A study of Mus musculus with 9 samples.

Results

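Genes of the MHC class I antigen presentation pathway were followed through the B cell to plasma cell transition. They were taken as a fixed list of 10 symbols: the heavy chains H2-K1, H2-D1 and H2-T23, the light chain B2m, the peptide transporter subunits Tap1 and Tap2, the loading factors Tapbp and Tapbpl, the trimming peptidase Erap1 and the transactivator Nlrc5. All 10 were among the 29995 genes of the expression table that omits immunoglobulin (Ig) genes, and all 10 were among the 12892 genes that passed the filter on low values.

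The libraries came from spleens of 12-week-old B6.Blimp1+/GFP mice, which carry 1 Blimp1 allele with a GFP reporter in every group and had received 50 μg NP-LPS by intraperitoneal injection 4 days earlier. NP is a hapten and LPS is bacterial lipopolysaccharide, and together they form an antigen to which B cells respond without T cell help. Sorted libraries of 3 groups (n = 3 each) were compared: naïve B cells (IgDhigh, B220+, not binding NP), activated B cells that bound NP (called NP+ B cells here; B220+, IgD-, negative for CD138 and the GFP reporter) and NP-binding plasma cells (PCs; IgD-, CD138+, GFP+, with or without B220). The sort of every group removed dead cells and those stained for T cell (CD4, CD8a), erythroid (Ter-119) or macrophage (F4-80) surface proteins. Naïve B cells, too, were taken from immunized mice, and no library from an unimmunized mouse was analysed here. The labels describe 3 cell types from 3 mice without saying which mouse gave which library, so that p-values measure the spread between these libraries.

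MHC class I molecules display short peptides from proteins made inside the cell to CD8 T cells. A polymorphic heavy chain folds in the endoplasmic reticulum (ER) with beta-2-microglobulin, receives a peptide that the proteasome cut and the TAP transporter pumped into the ER, and leaves for the surface once the peptide fits. Nearly all nucleated cells carry these molecules, and their genes are switched on together by NLRC5, interferon regulatory factors and NF-κB, whereas MHC class II, which shows peptides from engulfed material to CD4 T cells, is restricted to antigen-presenting cells such as B cells and depends on CIITA.

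The markers of the groups followed the labels. The summed level of 5 detected plasma cell markers was 119 to 139 TPM (a level corrected for transcript length and library total) in naïve B cells, 185 to 192 in NP+ B cells and 6014 to 7288 in PCs, and that of 4 naïve B cell markers was 2231 to 2284, 822 to 988 and 15.9 to 28.7. Estimated reads per library without Ig genes ranged from 20189900 to 38602300. Transcripts that mark other cell types were detected in some libraries. All 6 hepatocyte markers were high in PC replicate 3 (summed level 3069 TPM, with Apoc3 at 1139 and Alb at 660.5), against 1.28 and 1.31 in the other PC libraries and at most 2.06 elsewhere, where Apoa1, Apoc3, Ttr, Serpina1a and Fgb were at or near 0. C1qb, a macrophage gene, was 15.9 TPM in that library and 1.18 or less in the other 8. The neutrophil markers S100a8 and S100a9 were 24.7 and 23.9 TPM in NP+ B cell replicate 2 and 18.7 and 11.4 TPM in PC replicate 3, against at most 2.86 in the other 7 libraries. Although F4-80-positive cells had been gated out, the summed level of 5 macrophage markers was 8.13 to 9.06 TPM in naïve B cells, 47.8 to 69.5 in NP+ B cells and 31.2 to 61.6 in PCs. Cd68 gave 45.0 to 67.6 TPM of it in NP+ B cells and 28.8 to 35.6 in PCs, and the highest sum in PCs was in replicate 3, where C1qa (7.24) was high beside C1qb. C1qb was 0 in each NP+ B cell library. That of 5 dendritic cell markers was 7.25 to 8.10, 21.9 to 24.5 and 7.69 to 9.59 TPM, of which Flt3 gave 1.76 to 2.38, 15.8 to 19.4 and 4.45 to 5.34, while Zbtb46, Xcr1, Siglech and Itgax were each at most 3.11 in every library. The part of these cells in the results was not tested. Each call of the 10 genes below is also given without the library concerned where that changed it, but calls of other genes are not given this way.

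The classical heavy chains and B2m were the most abundant of the 10 genes in all groups. Levels below are TPM in the table without Ig genes. H2-K1, on chr17:33996017-34000347 of GRCm38 (minus strand), encodes the K heavy chain. H2-K1 was 2777, 2911 and 2875 TPM in the naïve B cell libraries, 1167, 1435 and 1244 in NP+ B cells, and 2208.5, 2237 and 2379 in PCs. All NP+ B cell libraries were below all others, and the PC libraries lay between the other groups without overlap. H2-D1, the D heavy chain (chr17:35262730-35267499, plus strand), was 4083, 4021 and 4077 TPM in naïve B cells, 2602, 2547 and 2445 in NP+ B cells, and 3056, 3312 and 3079 in PCs. It followed the same order of groups as H2-K1. H2-T23, which encodes the non-classical Qa-1 heavy chain that engages NKG2A on natural killer cells (chr17:36029773-36032855, minus strand), was 609.5, 669.7 and 643 TPM, then 365, 464 and 410.3, then 567, 574 and 563. Its groups again did not overlap, with PCs close below naïve B cells.

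B2m, the invariant light chain (chr2:122147686-122153083, plus strand), did not have this order. B2m was 2858, 3437 and 3669 TPM in naïve B cells, 1658, 2395 and 2119.7 in NP+ B cells, and 4496, 4284 and 5468.5 in PCs. Here PCs were the highest group, with no overlap between any of the 3. The highest PC value was in replicate 3, the library with hepatocyte transcripts.

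The promoters of H2-K1 and B2m are shown because these partners of 1 protein complex had different orders of levels. The sequences are from RefSeq (GRCm38.p6), 5′ to 3′ on the coding strand. That of H2-K1 is chr17:34000348-34000497 (150 bases, minus strand), and that of B2m is chr2:122147537-122147685 (149 bases, plus strand), both ending just before the annotated start. Capitals mark every match to 5 motifs searched on both strands: AANNGAAA (the core bound by interferon regulatory factors), GAAANNGAAA (the core of the interferon-stimulated response element, which can contain the former), TGACG (the core of cAMP response and X2 elements), CCAAT, and the NF-κB consensus.
H2-K1: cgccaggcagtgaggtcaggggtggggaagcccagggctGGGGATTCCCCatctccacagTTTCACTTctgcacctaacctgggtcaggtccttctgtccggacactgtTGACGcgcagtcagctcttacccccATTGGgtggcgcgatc
B2m: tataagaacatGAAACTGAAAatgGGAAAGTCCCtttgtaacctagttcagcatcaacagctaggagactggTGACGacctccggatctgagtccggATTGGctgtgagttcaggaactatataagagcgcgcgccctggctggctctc

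Both windows held an NF-κB match, an interferon regulatory factor core, TGACG and CCAAT, in different arrangement. In H2-K1 the matches began, counted from the start site, at -111 and -110 (overlapping NF-κB matches of either strand), -90, -41 and -16. In B2m they began at -139 (GAAANNGAAA, containing AANNGAAA at -137), -126, -78 and -53, so that the interferon element lay before the NF-κB match rather than after it. The B2m positions count from the RefSeq start, and the 1 base before it that lies in an annotated exon was not printed. Among the windows of 250 bases before all 27025 RefSeq gene starts, the NF-κB consensus was found in 7.01%, GAAANNGAAA in 3.04%, AANNGAAA in 21.6%, TGACG in 17.9% and CCAAT in 34.5%. H2-D1 held the NF-κB and interferon regulatory factor matches at the same spacing as H2-K1, further from its RefSeq start (from -171 on). The GENCODE model of H2-D1 starts earlier, so that its whole window lies within an annotated exon. The stretch of 30 bases that spans both matches is given for the pair, from chr17:34000430-34000459 (minus strand) and chr17:35262922-35262951 (plus strand), and 29 of its 30 bases were identical.
H2-K1: tGGGGATTCCCCatctccacagTTTCACTT
H2-D1: tGGGGATTCCCCatctcctcagTTTCACTT

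Windows were found for 7 of the 10 genes, and Tap2, Tapbpl and Nlrc5 had none. H2-T23 held GAAANNGAAA and a second AANNGAAA, and no match to these or to the NF-κB consensus was found for Tap1, Tapbp and Erap1. The windows of these 3 genes lie in annotated exons over all 250 bases, against 154 for H2-T23, 1 for B2m and 0 for H2-K1, so they are not compared as promoters. Such matches describe the letters of these windows only.

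The transporter and loading genes were present at much lower levels than the chains they serve. Tap1 and Tap2, the subunits of the peptide pump, lie close together on chr17:34187553-34197225 and chr17:34203527-34216321 (both plus strand). Tap1 was 151, 161 and 173 TPM in naïve B cells, 130.0, 125 and 96.9 in NP+ B cells, and 72.0, 91.4 and 73.4 in PCs. Tap2 was 148, 154 and 165 TPM, then 153, 123 and 132, then 81.7, 94.5 and 86.1. Both were lowest in all PC libraries. The naïve and NP+ B cell libraries overlapped for Tap2 but not for Tap1.

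Tapbp encodes tapasin, which tethers empty class I molecules to TAP within the peptide-loading complex (chr17:33915899-33929292, plus strand), and Tapbpl encodes TAPBPR, a related peptide editor that works outside that complex (chr6:125223933-125231860, minus strand). Tapbp was 352, 331 and 362 TPM in naïve B cells, 239, 194 and 192 in NP+ B cells, and 246, 279 and 260.3 in PCs. Tapbpl was 64.3, 65.2 and 66.1 TPM, then 81.8, 68.7 and 78.5, then 136, 147 and 125. Tapbp was highest in naïve B cells and lowest in NP+ B cells, whereas Tapbpl was highest in PCs. Erap1, the ER aminopeptidase that trims peptides to the length class I holds (chr13:74639568-74693201, plus strand), was 29.5, 26.7 and 34.8 TPM, then 28.7, 26.8 and 20.2, then 34.1, 38.2 and 37.5. Nlrc5, the class I transactivator (chr8:94434356-94527272, plus strand), was the lowest of the 10 at 14.4, 15.5 and 14.8 TPM, then 18.3, 17.2 and 14.0, then 7.87, 8.81 and 6.83. Its PC libraries were all below all others, while naïve and NP+ B cells overlapped. The 10 genes rested on at least 614 estimated reads in every library (Nlrc5) and on up to 186248 (H2-D1).

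**Figure D1:**
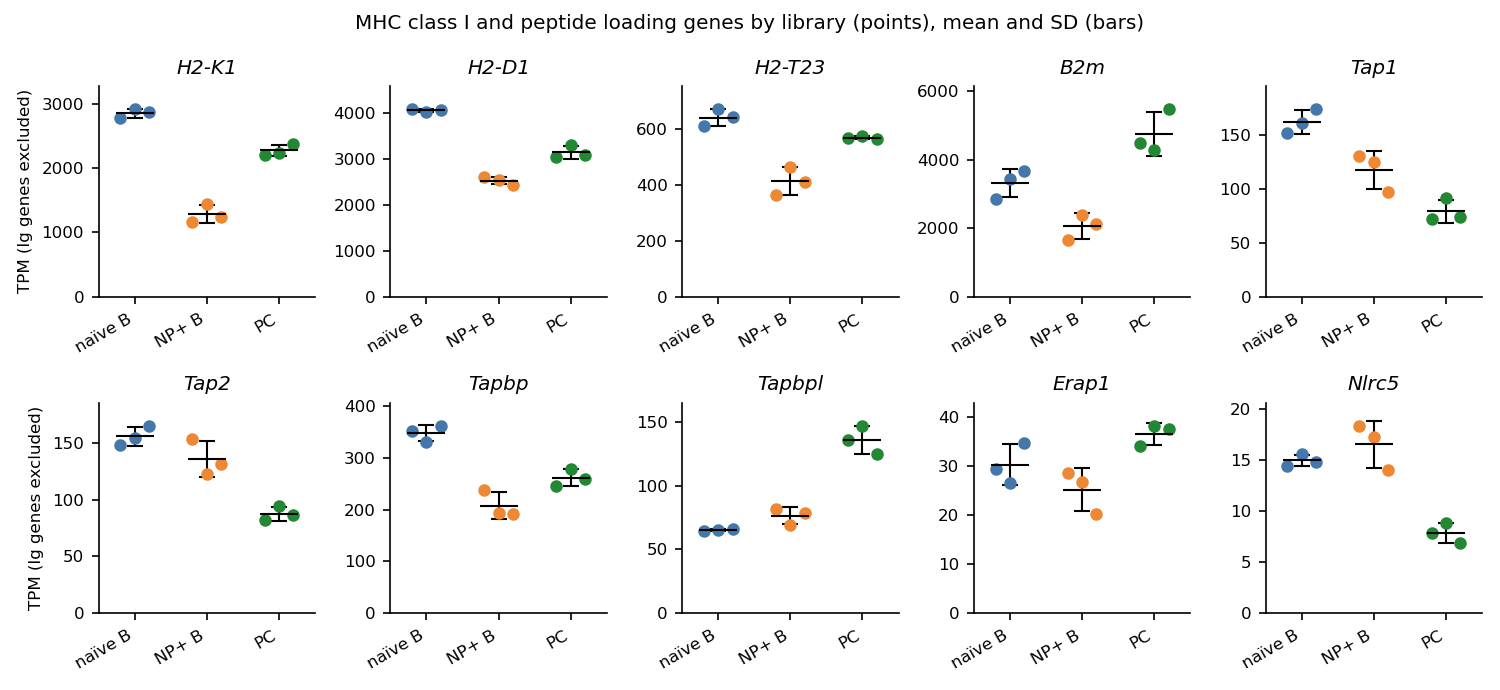
TPM of the 10 genes (vertical axes, from 0, table without Ig genes) in each library of naïve B cells, NP+ B cells and plasma cells, with bars for the mean and SD of 3 libraries. H2-K1, H2-D1, H2-T23 and Tapbp are lowest in NP+ B cells, B2m and Tapbpl are highest in plasma cells, and Tap1, Tap2 and Nlrc5 are lowest in plasma cells.

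Within a group the genes kept a broad order, with a few exchanges in PCs. In naïve B cells the order of mean TPM (± SD, n = 3) was H2-D1 (4060.2 ± 34.1), B2m (3322 ± 417), H2-K1 (2855 ± 69.3), H2-T23 (641 ± 30.1), Tapbp (348 ± 15.7), Tap1 (162 ± 11), Tap2 (156 ± 8.46), Tapbpl (65.2 ± 0.91), Erap1 (30.3 ± 4.13) and Nlrc5 (14.9 ± 0.561). B2m and H2-K1 were neighbours whose libraries overlapped, as were Tap1 and Tap2. In NP+ B cells it was H2-D1 (2532 ± 79.8), B2m (2057 ± 373), H2-K1 (1282 ± 138), H2-T23 (413 ± 49.8), Tapbp (208 ± 26.6), Tap2 (136 ± 15.6), Tap1 (117 ± 17.8), Tapbpl (76.4 ± 6.82), Erap1 (25.2 ± 4.43) and Nlrc5 (16.5 ± 2.26), where again only Tap1 and Tap2 overlapped. In PCs B2m (4749 ± 632) came before H2-D1 (3149 ± 141) and H2-K1 (2275 ± 91.1), and Tapbpl (136 ± 10.9) came before Tap2 (87.4 ± 6.48) and Tap1 (78.9 ± 10.8). All 3 Tapbpl values in PCs were above all Tap1 and Tap2 values there, the reverse of naïve B cells. H2-T23 (568 ± 5.53), Tapbp (262 ± 16.7), Erap1 (36.6 ± 2.20) and Nlrc5 (7.84 ± 0.99) kept their places. Together the 10 genes made up 1.17 to 1.28% of summed TPM in naïve B cells, 0.678 to 0.779% in NP+ B cells and 1.15 to 1.27% in PCs, which was 0.440 to 0.540% in PCs with Ig genes kept.

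The first comparison asked how the genes differed between naïve and antigen-activated B cells. H2-K1 fell by 1.17 ± 0.08 on the log2 scale (SE; adjusted p = 4.0e-06), a 2.25-fold lower level in NP+ B cells, and it was the only 1 of the 10 called lower at an adjusted p under 0.05 and a fold over 2 (limma, Benjamini-Hochberg adjustment over all tested genes). None was called higher. Of all tested genes, 18.5% were called in this comparison, 10.4% lower and 8.13% higher. Leaving out each library in turn kept H2-K1 between -1.25 and -1.10, and median-of-ratios scaling took it to -0.93, inside the limit. In bulk libraries, fewer cells of a type with the transcript and less of the transcript per cell cannot be told apart.

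By adjusted p alone, 6 of the 10 genes were lower and none higher in NP+ B cells, where 42.1% of all tested genes passed, 23.5% lower and 18.6% higher. Tapbp had a log2 difference of -0.76 ± 0.10 (adjusted p = 0.00024), B2m of -0.71 ± 0.15 (adjusted p = 0.0032), H2-D1 of -0.69 ± 0.06 (adjusted p = 1.8e-05) and H2-T23 of -0.65 ± 0.09 (adjusted p = 0.00037). Tap1 differed by -0.48 ± 0.13 (adjusted p = 0.014), and its adjusted p was up to 0.26 under the alternatives. The others did not pass: Erap1 differed by -0.28 ± 0.16 (adjusted p = 0.19), Tap2 by -0.21 ± 0.11 (0.13), Nlrc5 by 0.12 ± 0.16 (0.55) and Tapbpl by 0.21 ± 0.11 (0.14). Tap2 passed under quantile normalization (-0.46, adjusted p = 0.0015), and under median-of-ratios scaling Tapbpl passed as higher (0.46, adjusted p = 0.028), so that 5 to 7 were lower and 0 to 1 higher over the 4 scalings. The groups did not overlap for 7 of the 10 genes, as for 55.9% of all tested genes. The median difference of the 10 was -0.56, and that of all tested genes was -0.16.

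Statements on PCs depended on the scale. In the table without Ig genes, the TPM of any other gene was 3.33 to 3.60 times higher in the PC libraries. The factor was 1.07 in naïve B cells and 1.11 to 1.13 in NP+ B cells. These factors are on the TPM scale, which corrects for transcript length, and do not give the share of reads from Ig genes. Estimated reads of PC replicates 1, 2 and 3 were 30532800, 32768500 and 28958700 with Ig genes. Without Ig genes they were 21125200, 22137400 and 20189900. With Ig genes kept, the median log2 difference of all tested genes moved by -0.97 for PCs against NP+ B cells and by -0.93 for PCs against naïve B cells. In that setting 7775 of 12324 tested genes were called in either direction for PCs against NP+ B cells, and 8494 for PCs against naïve B cells. Median-of-ratios scaling moved it by 0.24 for NP+ against naïve B cells, 0.27 for PCs against NP+ B cells and 0.52 for PCs against naïve B cells, and quantile normalization moved it by 0.08, 0.30 and 0.40. Differences of PCs are therefore also given relative to the median of all tested genes under the same scaling.

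PCs were next compared with NP+ B cells, which share their antigen. B2m rose by 1.22 ± 0.14 on the log2 scale (adjusted p = 3.6e-05, 2.33-fold) and Nlrc5 fell by 1.02 ± 0.17 (adjusted p = 0.00049, 2.03-fold). These were the genes called, 1 higher and 1 lower of 10, where 32.2% of all tested genes were called, 9.93% higher and 22.3% lower. The B2m call held without each library in turn (1.07 to 1.34; 1.11 without PC replicate 3), but with Ig genes kept its difference was 0.01 (adjusted p = 0.97) and with quantile normalization 0.99. Nlrc5 stood just past the 2-fold limit. It was -0.75 under median-of-ratios scaling and -0.52 under quantile normalization, and also came inside the limit with log2(TPM + 1) values fitted without voom weights (-0.98), without NP+ B cell replicate 1 (-0.95), without NP+ B cell replicate 2 (-0.99) and without PC replicate 3 (-0.93).

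By adjusted p alone all 10 genes differed between PCs and NP+ B cells, 7 higher and 3 lower, where 53.8% of all tested genes differed, 15.7% higher and 38.1% lower. Without NP+ B cell replicate 3 there were 5 higher, and without PC replicate 2 there were 6. Over all alternatives the adjusted p reached 0.069 for Tapbp and 0.051 for Erap1. H2-K1 had a log2 difference of 0.83 ± 0.08 (adjusted p = 1.0e-05) and Tapbpl of 0.83 ± 0.10 (adjusted p = 5.3e-05). Erap1 (0.54 ± 0.16), H2-T23 (0.47 ± 0.09), Tapbp (0.34 ± 0.10) and H2-D1 (0.32 ± 0.06) had smaller ones, with adjusted p between 0.0015 and 0.017. All 6 turned negative with Ig genes kept, from -0.89 for H2-D1 to -0.37 for H2-K1 and Tapbpl. Under median-of-ratios scaling H2-K1 (1.11) and Tapbpl (1.10) were called higher beside B2m. Under quantile normalization Tapbpl (1.04) was called higher and B2m was not. Tap2 (-0.63 ± 0.11, adjusted p = 0.00066) and Tap1 (-0.56 ± 0.14, adjusted p = 0.0058) were lower. Both stayed negative under all 4 scalings, but did not pass under median-of-ratios scaling (-0.35, adjusted p = 0.055, and -0.29, adjusted p = 0.16), nor did Tap1 under quantile normalization (-0.25, adjusted p = 0.13). With Ig genes kept both were called lower (Tap2 -1.82 and Tap1 -1.75).

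Relative to all genes, each of the 10 kept its side of the median under the 4 scalings. B2m, H2-K1, Tapbpl, Erap1, H2-T23, Tapbp and H2-D1 lay above the median of all tested genes, and Tap1, Tap2 and Nlrc5 lay below it. B2m was 0.99 to 1.52 above that median, H2-K1 0.57 to 1.14 above and Tapbpl 0.91 to 1.13 above. H2-T23 was 0.28 to 0.77 above and H2-D1 0.08 to 0.62 above. Both distances were smallest under quantile normalization, where neither gene passed (adjusted p = 0.055 and 0.35), which left 5 genes higher by adjusted p. The distance from the median was -0.77 to -0.53 for Nlrc5, -0.54 to -0.33 for Tap2 and -0.48 to -0.25 for Tap1. The groups did not overlap for any of the 10 genes, against 58.2% of all tested genes. The median difference of the 10 was 0.40, and that of all genes was -0.30.

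**Figure D2:**
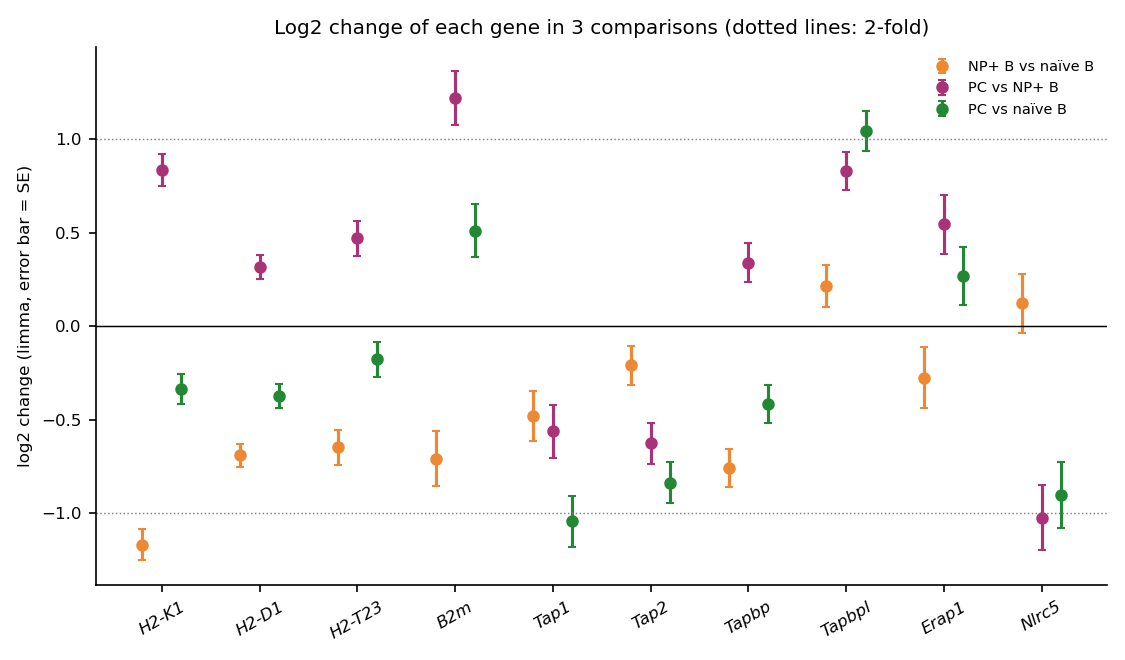
Log2 difference of each gene (vertical axis, points with SE from limma, table without Ig genes) for the 3 comparisons of 3 against 3 libraries, with dotted lines at 2-fold. H2-K1 (-1.17) is the only gene past the lower line in NP+ against naïve B cells, and B2m (1.22) is the highest point, in plasma cells against NP+ B cells.

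PCs were also set against naïve B cells, the start and end of the transition. Tapbpl rose by 1.04 ± 0.11 on the log2 scale (adjusted p = 8.9e-06) and Tap1 fell by 1.04 ± 0.14 (adjusted p = 6.7e-05), each 2.06-fold. These were the genes called, 1 higher and 1 lower of 10, where 37.8% of all tested genes were called, 11.4% higher and 26.3% lower. Both stood just past the limit. Tapbpl came inside it without PC replicate 2 (0.99) and was 1.10 without PC replicate 3, and its sign turned with Ig genes kept (-0.17). Tap1 was -0.53 under median-of-ratios scaling, and it came just inside the limit under quantile normalization (-0.996), with the log2 values of the authors (-0.95), with estimated counts (-0.95), and without naïve B cell replicate 3 (-0.99), PC replicate 1 (-0.98) or PC replicate 3 (-0.99).

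By adjusted p alone 2 genes were higher and 6 lower in PCs than in naïve B cells, where 60.3% of all tested genes passed, 18.2% higher and 42.2% lower. B2m had a log2 difference of 0.51 ± 0.14 (adjusted p = 0.0090), which was -0.71 with Ig genes kept and 1.03 under median-of-ratios scaling, where it was called. Nlrc5 differed by -0.90 ± 0.18 (adjusted p = 0.0011) and Tap2 by -0.84 ± 0.11 (adjusted p = 6.6e-05), and both stayed negative under the 4 scalings. They did not pass under median-of-ratios scaling (-0.39, adjusted p = 0.12, and -0.32, adjusted p = 0.075), and Nlrc5 was -0.31 (adjusted p = 0.14) under quantile normalization. Tapbp (-0.42 ± 0.10), H2-D1 (-0.37 ± 0.06) and H2-K1 (-0.33 ± 0.08) had adjusted p of 0.0043, 0.00038 and 0.0041, but were 0.10, 0.14 and 0.18 under median-of-ratios scaling. With Ig genes kept they were -1.63, -1.60 and -1.56, each called lower. Erap1 (0.27 ± 0.15, adjusted p = 0.15) and H2-T23 (-0.18 ± 0.09, adjusted p = 0.12) did not pass. Each passed under the other scalings in differing directions, as Erap1 was 0.69 under quantile normalization, 0.78 under median-of-ratios scaling and -0.91 with Ig genes kept. H2-T23 was -0.59, 0.34 and -1.40 there, the last of them called. The groups did not overlap for 9 of the 10 genes, as for 69.7% of all tested genes, and the median was -0.35 against -0.47 for all genes.

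Relative to the median of all genes, 6 of the 10 kept their side under all 4 scalings in this comparison. Tapbpl (1.20 to 1.52), B2m (0.51 to 0.99) and Erap1 (0.49 to 0.76) were above it. Tap1 (-0.92 to -0.57), Tap2 (-0.73 to -0.36) and Nlrc5 (-0.53 to -0.23) were below it. The 3 heavy chains and Tapbp changed side with the scaling, as H2-K1 ranged from -0.38 to 0.14 and Tapbp from -0.59 to 0.06, so that their order between PCs and naïve B cells in TPM holds for the table without Ig genes and not under every scaling.

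**Figure D3:**
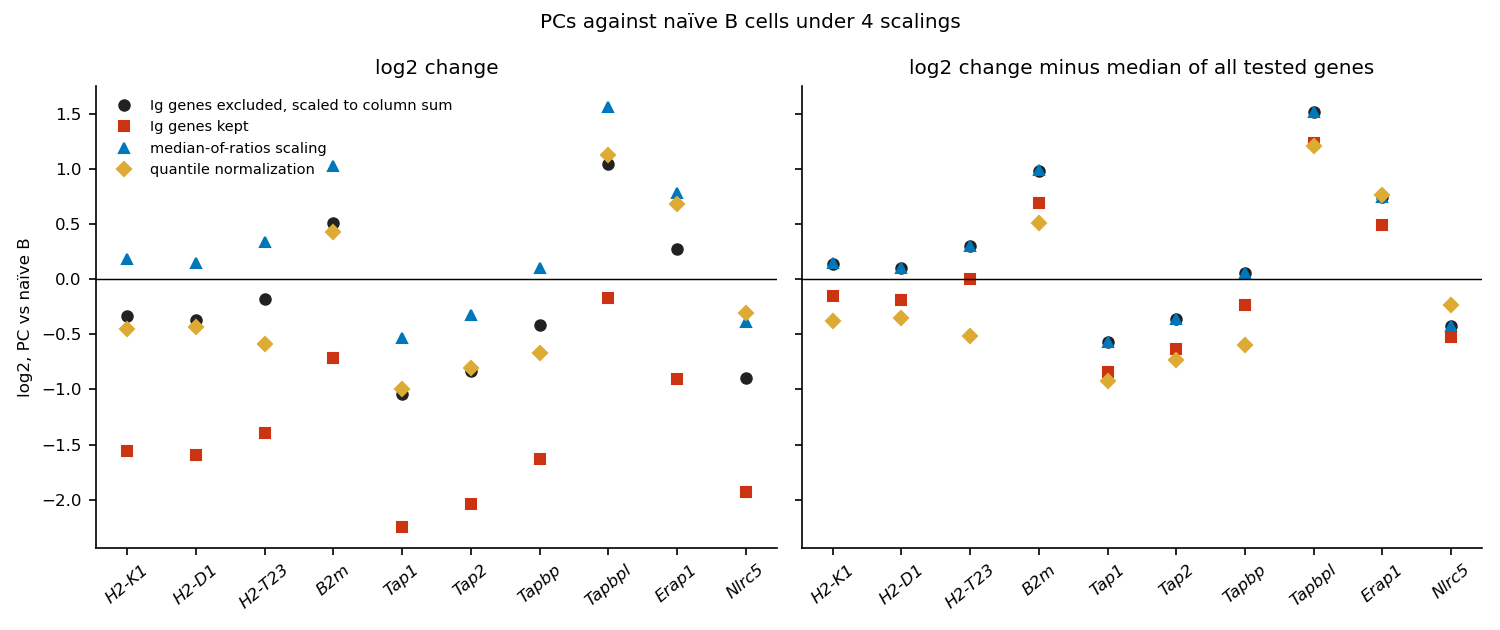
Log2 difference of plasma cells against naïve B cells for the 10 genes under 4 scalings, as fitted (left) and after subtracting the median of all tested genes under the same scaling (right). Symbols spread by more than 1 unit on the left, whereas on the right Tapbpl, B2m and Erap1 lie above 0 and Tap1, Tap2 and Nlrc5 below it under each scaling.

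Ratios of 2 genes within a library do not depend on the scaling to a total. They describe how the levels of partners stood to each other in these libraries, and no difference passed the test given next. The share of all gene pairs whose ratio does not overlap between groups was not computed. In all, 8 ratios were compared between the 3 pairs of groups, 24 comparisons, each with an exact permutation test that cannot go below p = 0.1 with 3 against 3 libraries. Where groups did not overlap, the 2-sided exact p was 0.1, and 0.13 after Benjamini-Hochberg adjustment. The ratio of H2-K1 to B2m was 0.972, 0.847 and 0.784 in naïve B cells, 0.704, 0.599 and 0.587 in NP+ B cells, and 0.491, 0.522 and 0.435 in PCs, with no overlap. The ratio of H2-D1 to B2m was 1.24 ± 0.169 (SD, n = 3) in naïve and 1.26 ± 0.270 in NP+ B cells, which overlapped, and 0.672 ± 0.105 in PCs. H2-K1 to H2-D1 was 0.703 ± 0.0220 in naïve B cells, 0.507 ± 0.0576 in NP+ B cells and 0.724 ± 0.0485 in PCs, so that NP+ B cells stood below both other groups, which overlapped.

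The ratio of Tapbp to Tapbpl was 5.47, 5.08 and 5.48 in naïve B cells, 2.92, 2.82 and 2.44 in NP+ B cells, and 1.81, 1.90 and 2.08 in PCs. All 3 groups were separate. The ratio of Tap1 to Tap2 was 1.04 ± 0.0161 in naïve B cells, 0.868 ± 0.142 in NP+ B cells and 0.900 ± 0.0594 in PCs, where the last pair overlapped (exact permutation p = 0.8).

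**Figure D4:**
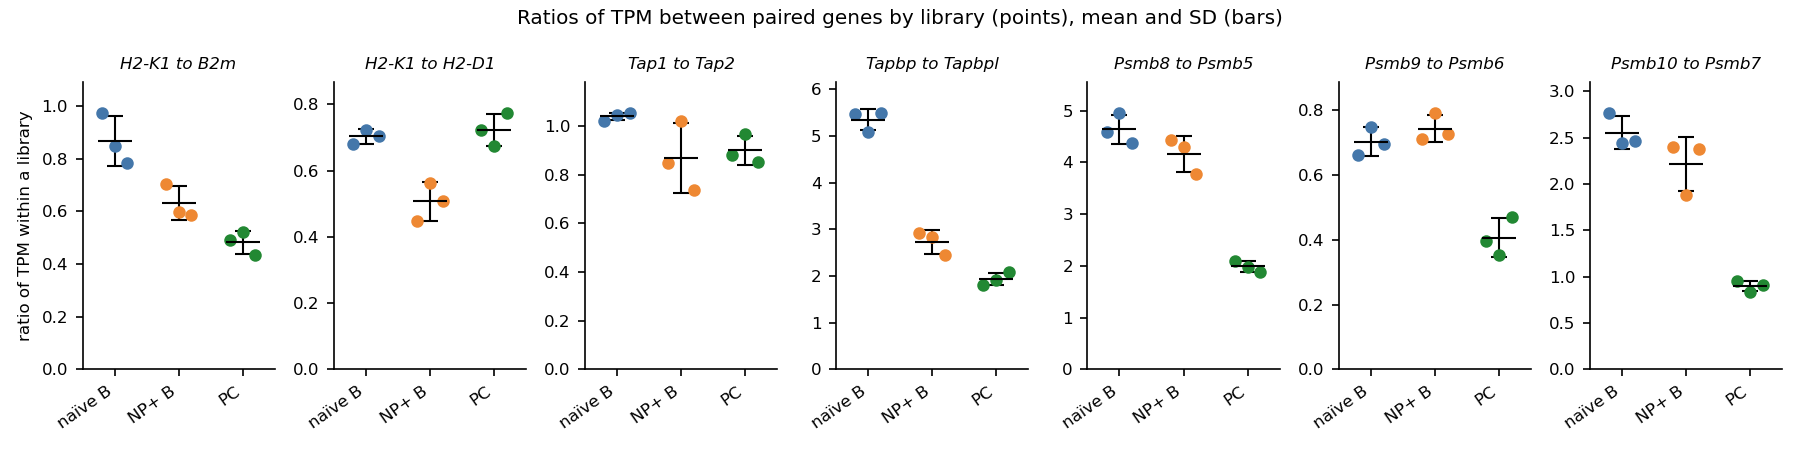
Ratio of TPM of 2 genes within each library (vertical axes, from 0), with bars for the mean and SD of 3 libraries per group. Tapbp to Tapbpl has a mean of 5.34 in naïve B cells and 1.93 in plasma cells, and the 3 ratios of immunoproteasome to constitutive proteasome subunits are lowest in plasma cells.

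The proteasome supplies the peptides. Immunoproteasome subunits (Psmb8, Psmb9 and Psmb10) replace the constitutive catalytic subunits (Psmb5, Psmb6 and Psmb7) in immune cells and change the peptides cut. In NP+ against naïve B cells none of the 5 genes of the immunoproteasome and its activator was called, but 4 were higher by adjusted p alone, where 18.6% of all tested genes were: Psmb9 by 0.61 ± 0.08, Psme2 by 0.54 ± 0.08, Psmb8 by 0.51 ± 0.08 and Psmb10 by 0.29 ± 0.09 on the log2 scale. The constitutive subunits were also higher there, by 0.50 to 0.67, with none of 3 called. The Psmb9 and Tap1 gene models overlap by 212 bases on opposite strands around their starts, yet Psmb9 was higher and Tap1 lower in NP+ B cells by adjusted p. The sources do not say that the libraries kept strand, so reads of the shared bases cannot be told apart. In PCs against NP+ B cells all 5 immunoproteasome genes were lower by adjusted p, from -0.85 for Psmb10 to -0.34 for Psme2, where 38.1% of all tested genes were lower. Under median-of-ratios scaling Psme2 was -0.06 and Psmb9 -0.12. None was called. All 5 were called lower with Ig genes kept, where 7775 of 12324 tested genes were called in either direction.

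Against naïve B cells, PCs had higher Psmb5 (1.12 ± 0.09) and Psmb6 (1.00 ± 0.10), both called, and Psmb7 (0.93 ± 0.11), with signs that turned when Ig genes were kept (-0.10, -0.22 and -0.28). Under quantile normalization Psmb5 (0.86) and Psmb6 (0.53) were inside the limit and Psmb7 (1.05) was past it. In the 3 scale-free ratios the PC libraries did not overlap those of either other group (exact permutation p = 0.1, adjusted p = 0.13). Psmb8 to Psmb5 was 4.64 ± 0.285 (SD, n = 3) in naïve B cells, 4.16 ± 0.347 in NP+ B cells and 1.99 ± 0.106 in PCs. Psmb9 to Psmb6 was 0.703 ± 0.0439, 0.743 ± 0.0413 and 0.407 ± 0.0592, and Psmb10 to Psmb7 was 2.55 ± 0.180, 2.22 ± 0.292 and 0.898 ± 0.0577.

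Of 7 tested ER chaperones and glucosidases that fold heavy chains along with other glycoproteins, 5 were called higher and none lower in PCs against naïve B cells (11.4% of all tested genes were called higher), and all 7 were higher by adjusted p. Under the 4 scalings 2 to 6 of the 7 were called higher. Calr (calreticulin, the lectin of the peptide-loading complex) rose by 2.70 ± 0.16 and Pdia3 (ERp57, the disulfide isomerase bound to tapasin) by 2.65 ± 0.11. Both were higher under all 4 scalings, Calr by at least 1.48 and Pdia3 by at least 1.42. Canx (calnexin) rose by 1.25 ± 0.13, which was 0.03 with Ig genes kept. Against this, Tapbp, their partner in the complex, had a log2 difference of -0.42 that turned to 0.10 under median-of-ratios scaling. In NP+ against naïve B cells none of the 7 was called in either direction, against 18.5% of all tested genes, with Calr at -0.70 ± 0.18 (adjusted p = 0.0094; -1.05 and called under quantile normalization) and Pdia3 at 0.63 ± 0.12 (adjusted p = 0.0018).

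Peptidases outside the ER differed singly. Of 8 tested, Lap3 (leucine aminopeptidase) was called higher in NP+ against naïve B cells (1.01 ± 0.13), and 2 were called higher and 1 lower in PCs against naïve B cells, namely Lap3 (1.85 ± 0.12), Dpp3 (1.58 ± 0.13) and Lnpep, an endosomal trimming enzyme (-1.25 ± 0.24, and -0.74 and -0.71 under median-of-ratios scaling and quantile normalization). These 3 of 8 were close to the 37.8% of all tested genes called in that comparison. The Lap3 difference in NP+ B cells lay at the 2-fold limit. With Ig genes kept none of the 8 was called higher and 4 were called lower in PCs against naïve B cells. In that setting 8494 of 12324 tested genes were called in either direction.

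Other heavy chains of the class I fold, many encoded beside H2-K1 and H2-D1, were listed as well. Of 16 tested, 5 were called lower and none higher in NP+ against naïve B cells, with a median of -0.90, where 10.4% of all tested genes were called lower: H2-Q4 (-1.83 ± 0.23), H2-Q5, H2-Q6, H2-Q7 and Fcgrt, the neonatal Fc receptor (-1.32 ± 0.31). In PCs against naïve B cells 6 were called lower and none higher, Fcgrt most (-4.65 ± 0.53), where 26.3% of all tested genes were called lower and 37.8% in either direction. With Ig genes kept 11 were called lower, where 8494 of 12324 tested genes were called in either direction. Under median-of-ratios scaling 2 were called higher. Fcgrt was 22, 28.8 and 20.8 TPM in naïve B cells and 0, 0 and 3.05 in PCs. The value above 0 was in PC replicate 3, and the size of the difference depends on the offset added to the zeros. For PCs against NP+ B cells, 1 of the 16 was called higher and 3 lower, where 9.93% and 22.3% of all tested genes were. The gene called higher was H2-T24 (1.07 ± 0.12), which was -0.12 with Ig genes kept. H2-Q10, a class I gene expressed mainly by liver, was 2.87, 3.14 and 81.6 TPM in the PC libraries, and the high value was in replicate 3, where the hepatocyte markers were high.

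Sequence shared with other genes limits how reads were divided. In the GENCODE M21 transcripts, 22.8% of the 31-base words of H2-K1 occurred in transcripts of another gene (11.1% in H2-D1), as did 26.9% of those of H2-D1, 25.8% of H2-T23, 26.9% of Tapbp and 14.3% of Tap2. The share was 11% for Erap1, 5.34% for Tapbpl and under 1% for Tap1 (0.825%), Nlrc5 (0.579%) and B2m (0%). Words were matched on either strand. Most of the share of Tapbp was with Gm19412 (22.1%), of Tap2 with Gm15821 (11.3%) and of Erap1 with Cast (11%), none of them a class I heavy chain. Values of the heavy chains H2-K1, H2-D1 and H2-T23 are therefore less certain than those of B2m, Tap1 and Nlrc5. For Tapbp, Tap2 and Erap1 this depends on whether the authors' annotation, which is not given, held the transcripts that share their words.

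**Figure D5:**
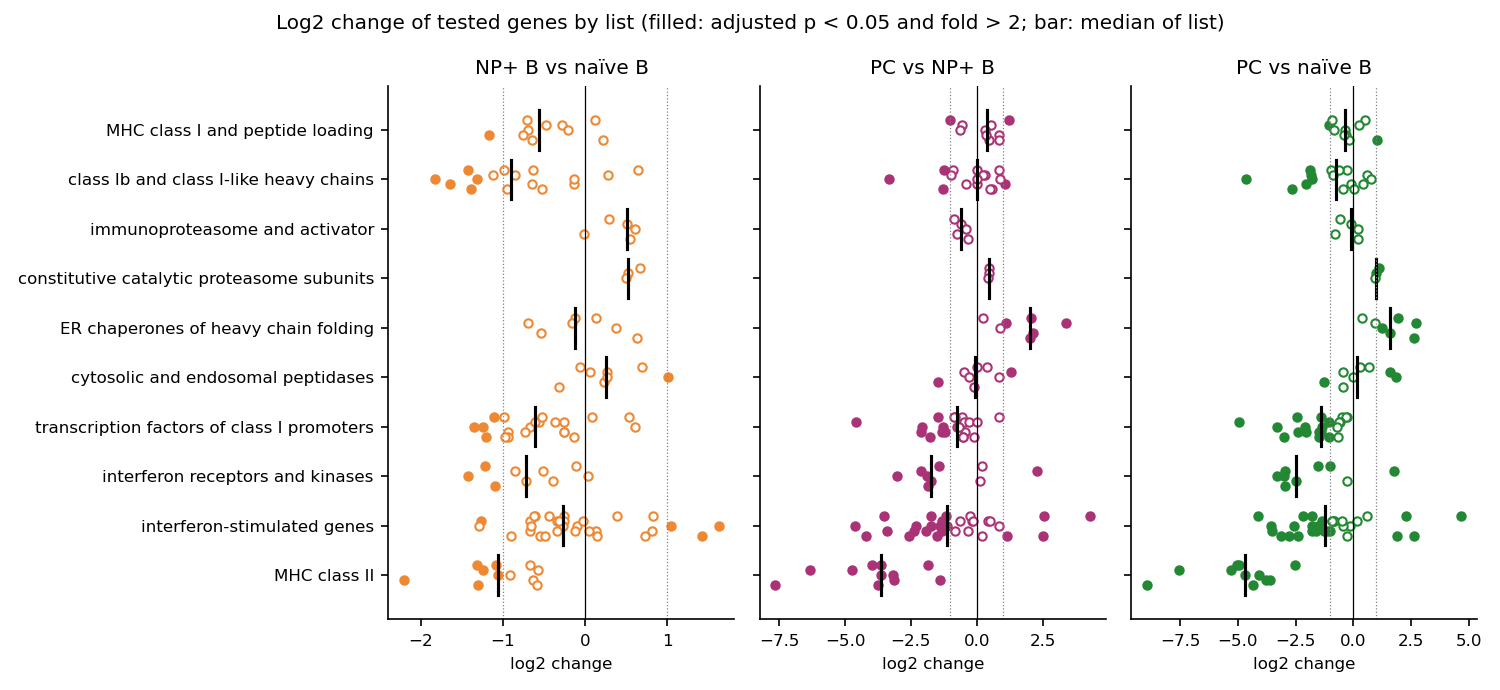
Log2 difference (horizontal axes, which differ in range between panels) of the tested genes of each list for the 3 comparisons, filled where adjusted p was under 0.05 and the fold over 2, with a bar at the median of the list. The MHC class I and peptide loading genes lie between -1.17 and 1.22, while all 11 MHC class II genes are called lower in plasma cells against naïve B cells.

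The factors that act on class I promoters were mostly lower in PCs. Of 21 tested, 14 were called lower and none higher against naïve B cells (26.3% and 11.4% of all tested genes), with a median of -1.40, and 7 to 21 were called lower under the 4 scalings. The count of 21 was with Ig genes kept, where 8494 of 12324 tested genes were called in either direction. The log2 difference was -4.95 ± 0.20 for Irf8, a factor of the B cell lineage, -2.45 ± 0.22 for Rfx5, a subunit of the complex that recruits NLRC5 and CIITA, -2.09 ± 0.14 for Irf1 and -1.40 ± 0.15 for Irf2, and all 4 were negative under the 4 scalings. Irf1 was 147, 154 and 160 TPM in naïve B cells, 54.0, 54.2 and 75.2 in NP+ B cells, and 38.0, 34.9 and 35.1 in PCs. It was also called lower in NP+ against naïve B cells (-1.35 ± 0.13), where 4 of the 21 were called lower (1 to 5 under the 4 scalings), against 10.4% of all tested genes, and Rfx5 differed by -0.99 ± 0.18 (adjusted p = 0.0016).

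Interferon signalling genes were lower too, with exceptions. Of 9 receptors, kinases and inhibitors, 7 were called lower and 1 higher in PCs against naïve B cells, where 26.3% of all tested genes were called lower and 11.4% higher, and 6 to 8 were called lower and 0 to 1 higher under the 4 scalings. Ifngr1, a chain of the interferon gamma receptor, fell by 2.99 ± 0.17, Socs3, an inhibitor of cytokine signalling, fell by 3.30 ± 0.44, and Ifnar2, a chain of the type I interferon receptor, rose by 1.79 ± 0.16 (0.57 with Ig genes kept). Socs3 was 0.43, 0.31 and 1.31 TPM in PCs, the last in replicate 3, so the size of its difference depends on the offset. Of 30 interferon-stimulated genes, 17 were called lower and 4 higher in PCs against naïve B cells (26.3% and 11.4% of all tested genes), from Ifit3 (-4.14 ± 0.37) to Isg20 (4.69 ± 0.12), and 13 to 22 lower and 3 to 5 higher under the 4 scalings, of which that with Ig genes kept tested 28. The highest counts of lower genes, 8 and 22, were with Ig genes kept, where 8494 of 12324 tested genes were called in either direction. Ifit3 was 0.12, 0.23 and 0.48 TPM in PCs, so the size of its difference depends on the offset added before taking logs. In NP+ against naïve B cells 3 of the 30 were called higher and 1 lower, with Ifih1 at 1.63 ± 0.31 and Ifi44 at -1.26 ± 0.33, below the 18.5% of all tested genes called there. Under median-of-ratios scaling 5 were called higher, and under quantile normalization Ifi44 was inside the limit (-0.82). Ifi44 was 0.28, 0.46 and 0.26 TPM in NP+ B cells, so its difference depends on the offset too. Gbp2, a guanylate-binding protein, was called higher in NP+ B cells (1.04 ± 0.17) and lower in PCs against naïve B cells (-3.58 ± 0.31). Its levels in PCs were 1.22, 0.23 and 1.44 TPM, so the size of the latter also depends on the offset.

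MHC class II genes gave a much wider range in the same libraries. All 11 were called lower in PCs against naïve B cells (26.3% of all tested genes), with a median of -4.69, and 6 of 11 were called lower in NP+ against naïve B cells, with a median of -1.06 (3 to 6 under the 4 scalings, and 10.4% of all tested genes). Ciita, the class II transactivator, was 186, 197 and 194 TPM in naïve B cells, 88.3, 79.5 and 78.1 in NP+ B cells, and 0.42, 0.45 and 0.75 in PCs, a log2 difference of -7.55 ± 0.25. Nlrc5, its class I counterpart, fell to 7.84 ± 0.99 TPM (SD, n = 3) from 16.5 ± 2.26 in NP+ B cells. H2-Aa, a class II alpha chain, was 6895, 7150.0 and 6464 TPM in naïve B cells and 263, 264 and 270.2 in PCs, whereas H2-K1 was 2275 ± 91.1 TPM in PCs. The log2 differences of PCs from naïve B cells were -3.78 ± 0.09 for H2-Ab1, -2.53 ± 0.07 for Cd74, the invariant chain, and -8.95 ± 0.44 for H2-Oa. H2-Oa was 482, 533 and 429.8 TPM in naïve B cells and 0, 0.17 and 2.27 in PCs, the last in replicate 3. The sizes of the H2-Oa and Ciita differences therefore also depend on the offset. These class II genes were lower under all 4 scalings.

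The genes most like 3 of the members were found by the root-mean-square difference of log2 levels, each centred on its own mean over the 9 libraries, among 7249 other genes with a mean of at least 10 TPM. The 3 closest to H2-K1 were H2-Q7 (0.13), Icam2 (0.15) and Cant1 (0.15). Those closest to B2m were Kcnab2 (0.13), Ibtk (0.18) and Tmem135 (0.18), and those closest to Nlrc5 were Ppp2r4 (0.06), Plxnc1 (0.08) and Sept6 (0.08). H2-Q7 had a mean of 622 TPM in naïve B cells, 233 in NP+ B cells and 413 in PCs. It shares sequence with H2-K1, since 7.46% of the 31-base words of H2-K1 occurred in H2-Q7 transcripts.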

How the data were processed

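RNA from sorted splenic cells of 3 groups (n = 3 libraries each) was converted to cDNA by polyA capture. The authors estimated transcript abundance with kallisto (mm10) and deposited TPM values and log2 values normalized with voom and limma, each with all genes and again without Ig genes. The annotation release is not given in the sources used here. The TPM table lacking Ig genes was analysed with limma 3.58.1 (voom weights on all 9 libraries, a mean per group) in R 4.3.3 after keeping genes with at least 1 TPM in at least 3 libraries. A gene was called at an adjusted p (Benjamini-Hochberg) under 0.05 and a fold over 2. The log2 values that the authors deposited gave estimated reads and served as an alternative. On simulated data for NP+ against naïve B cells (12892 genes), 97 of 100 changes of 2 on the log2 scale and 89 of 100 of 1.5 were recovered. The changes were placed only in genes with a mean of at least 10 TPM in naïve B cells. No smaller change was simulated, so the recovery of differences near the 2-fold limit was not tested. Coordinates are from GENCODE M21 and promoter windows from RefSeq.

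The 10 genes and the gene lists were chosen with earlier results of these data known. Genes named from the lists were a preset group (such as Irf1, Psmb8, Calr and H2-Aa, not all of it reported here) and, per list and comparison, the called gene with the largest rise and the largest fall. H2-Q5, H2-Q6, H2-Q7, H2-Q10 and the marker genes fall outside this rule and were named after their values were seen. For Nlrc5, H2-K1 and B2m, the 3 most alike genes were named. Alternatives covered the Ig genes, scaling, input values, pseudocounts of 0.1 and 1 (fitted without voom weights), filter, libraries in the fit, a replicate block and each library left out. Libraries with markers of other cells were kept. Precision was limited by 3 libraries per group.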

Additional observations from a re-analysis of the deposited data

How the results depend on the processing

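Counts of called genes among the 10 rested on differences close to 2-fold. For NP+ against naïve B cells, 1 lower became 0 under median-of-ratios scaling and 2 under quantile normalization. For PCs against NP+ B cells, 1 higher and 1 lower became 0 and 3 with Ig genes kept and 3 and 0 under median-of-ratios scaling. The lower count was 0 under quantile normalization and with log2(TPM + 1) values fitted without voom weights, and 0 to 1 when each library was left out. For PCs against naïve B cells, 1 higher and 1 lower became 0 and 7 with Ig genes kept and 2 and 0 under median-of-ratios scaling. The lower count was 0 under quantile normalization, with the authors' log2 values and with estimated counts, and both counts were 0 to 1 when each library was left out. All genes called went from 2388 to 1179, from 4150 to 2640 and from 4870 to 2965 with a mean of at least 10 TPM, which tests fewer genes, and to 7775 and 8494 for the PC comparisons with Ig genes kept. Among the named genes, those called under either setting changed sign only with Ig genes kept: H2-T24 to -0.12 in PCs against NP+ B cells, and in PCs against naïve B cells Tapbpl to -0.17, Psmb5 to -0.10, Psmb6 to -0.22, Psmb9 to -1.01 and Psme2 to -1.01. Uncalled differences changed sign more often, and 9 of the 10 genes kept their sign under the 4 scalings in NP+ against naïve B cells, 4 in PCs against NP+ B cells and 3 in PCs against naïve B cells. The cause was not tested beyond the construction of each setting.

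Whether libraries of 1 number came from 1 mouse is not stated, and they were not treated as pairs. Correlations of their deviations from the group means ran from -0.07 to 0.07, and those of libraries of different number from -0.09 to 0.07. Such values cannot tell whether a mouse was shared. A replicate block changed none of the counts of called genes among the 10 (H2-K1 at -1.17 in NP+ against naïve B cells, B2m at 1.22 and Nlrc5 at -1.02 in PCs against NP+ B cells).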
